A study of Mus musculus with 1528 samples.

Results

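Transcripts of 9 C-type lectin genes, *Clec4e*, *Clec4d*, *Clec4n*, *Clec4a1*, *Clec4a2*, *Clec4a3*, *Clec4b1*, *Clec7a* and *Clec5a*, were followed in single bone marrow-derived macrophages (BMDMs) given IL4+IL13 or IL4+IL13+TNF. The 9 genes were chosen by name from the 55421 genes of the count table, with symbols matched to Ensembl identifiers, and all 9 were among the 17034 genes tested. The cells were grown from the bone marrow of 2 wild-type C57BL/6 mice and stimulated for 24 h with each cytokine at 10 ng/ml. Both groups were kept with M-CSF and received IL4 and IL13, and they differed in TNF. Single cells were sorted into 4 plates and processed with Smart-seq2, a full-length method without molecular identifiers, and 1386 of 1524 wells were kept. The number 1 or 2 in the sample titles was read as the mouse, which puts mouse 1 on plates 2 and 3 and mouse 2 on plates 4 and 5. Differences between the mice therefore cannot be told apart from differences between these pairs of plates. On each plate IL4+IL13 cells were in rows A to H and IL4+IL13+TNF cells in rows I to P, so treatment and position on the plate cannot be told apart. The mouse, not the cell, was the replicate (n = 2), and the counts of all kept cells of a mouse under 1 treatment were added up to give 4 sums.

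C-type lectin receptors of myeloid cells bind sugars and glycolipids of fungi, mycobacteria and dying cells. Mincle (*Clec4e*), Dectin-2 (*Clec4n*) and the DCAR receptor (*Clec4b1*) signal through the ITAM adaptor FcRγ, and MCL (*Clec4d*), also called Dectin-3, forms a complex with Mincle at the cell surface. Dectin-1 (*Clec7a*), the receptor for β-glucan, carries its own hemITAM, and MDL-1 (*Clec5a*) pairs with the adaptor DAP12. These receptors feed the kinase Syk and the adaptor Card9. The DCIR genes *Clec4a1*, *Clec4a2* and *Clec4a3* belong to the same cluster, and the DCIR protein made by *Clec4a2* carries an inhibitory ITIM. In macrophages *Clec7a* is known as an IL4-induced gene and *Clec4e* as a gene induced by inflammatory stimuli.

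All 9 genes lie on chromosome 6 (mm10). *Clec4a1*, *Clec4a3*, *Clec4b1*, *Clec4a2*, *Clec4n*, *Clec4d* and *Clec4e* follow each other between position 122921848, the start of *Clec4a1*, and position 123289870, the end of *Clec4e*. *Clec4d* (chr6:123262111-123275265, plus strand) and *Clec4e* (chr6:123281789-123289870, minus strand) are neighbours with 6523 bases and no other annotated gene between them. *Clec7a* (chr6:129461591-129472779, minus strand) and *Clec5a* (chr6:40574894-40585821, minus strand) lie apart from this cluster. In the GENCODE vM21 annotation the transcripts with the most exons have 6 or 7 for each of the 9 genes. Over all their annotated transcripts *Clec4e*, *Clec4d*, *Clec4a1*, *Clec4a3*, *Clec7a* and *Clec5a* share no stretch of 50 bases with another gene, whereas *Clec4b1* shares 8.68% of its stretches with *Clec4a2*. *Clec4a2* shares 7.27% of its stretches with other genes and *Clec4n* 0.686%. Uniquely mapped fragments were counted, so fragments from such stretches are lost or could be split, and the levels of *Clec4b1* and *Clec4a2* are uncertain to that extent. The table has 1 gene that overlaps one of the 9, Gm44132 within *Clec4a2*, with 55 fragments over all wells against 71866 for *Clec4a2*.

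The 250 bases before the start site are shown for *Clec4e*, the gene called below, for its neighbour *Clec4d* and for *Clec5a*, which lies far from both. The sequences are those of RefSeq on GRCm38.p6, the assembly also called mm10, written 5′ to 3′ on the strand of the gene, with motif matches in capitals (a match on the opposite strand appears as its reverse complement):
*Clec4e*, chr6:123289872-123290121, minus strand: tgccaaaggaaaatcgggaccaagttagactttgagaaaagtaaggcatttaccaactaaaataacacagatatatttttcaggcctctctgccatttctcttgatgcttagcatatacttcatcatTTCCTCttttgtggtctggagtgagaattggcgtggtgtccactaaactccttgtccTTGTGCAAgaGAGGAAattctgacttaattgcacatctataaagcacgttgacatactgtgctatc
*Clec4d*, chr6:123261857-123262106, plus strand: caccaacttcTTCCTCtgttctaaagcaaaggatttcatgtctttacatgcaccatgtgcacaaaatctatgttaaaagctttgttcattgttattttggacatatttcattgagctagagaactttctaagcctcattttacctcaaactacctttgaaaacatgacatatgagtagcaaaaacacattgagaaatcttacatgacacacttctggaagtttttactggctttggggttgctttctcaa
*Clec5a*, chr6:40585806-40586055, minus strand: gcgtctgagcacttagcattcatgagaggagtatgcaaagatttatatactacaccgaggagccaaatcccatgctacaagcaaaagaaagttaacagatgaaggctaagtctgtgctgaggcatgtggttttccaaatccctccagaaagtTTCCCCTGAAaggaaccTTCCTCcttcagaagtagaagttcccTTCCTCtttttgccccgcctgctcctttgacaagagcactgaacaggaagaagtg

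Windows were at hand for 8 of the 9 genes, with *Clec4n* named only. These 250 bases of each gene were searched on both strands for AP-1 (TGANTCA), C/EBP (TTGCNNAA), PU.1 (GAGGAA), the NF-κB consensus and the STAT6 consensus. The *Clec4e* window held 1 C/EBP match, from base -66 to base -59 before the start, and none of the other 7 genes had one. A C/EBP match was found in 9.56% of all 32851 promoter windows. PU.1, a factor that marks myeloid genes, had matches in 7 of the 8 genes, including 2 in *Clec4e*, 2 in *Clec5a* and 1 in *Clec4d*, whereas 23.3% of all windows have one. The STAT6 consensus was found in 3 of the 8 genes, *Clec4a1*, *Clec5a* and *Clec7a*, against 5.85% of all windows. No window of the 8 genes held the AP-1 letters or the NF-κB consensus, which 6.75% and 7.25% of all windows hold. These are matches of letters, and binding was not measured.

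The kept wells had 200235 to 6122892 fragments, with a median of 477871 in IL4+IL13 and 464673 in IL4+IL13+TNF. All 8 macrophage markers were found on every plate. Their summed levels were 14894 to 19296 CPM (counts scaled to a common library total) in IL4+IL13. In IL4+IL13+TNF the sums were 26000 to 28819 CPM. *Lyz2* made up most of these sums and was higher with TNF. *Fcgr1*, *Mertk* and *Cd68* were lower with TNF, without overlap of the plate ranges. For *Cd68* these were 1375 to 1519 CPM in IL4+IL13 and 1130 to 1269 CPM in IL4+IL13+TNF. The plate ranges of *Adgre1*, *Csf1r*, *Itgam* and *Cd14* overlapped between treatments. Summed markers of neutrophils and progenitors stayed at or below 7.97 CPM, of lymphoid cells at or below 1.11 CPM, of stromal cells at or below 2.86 CPM, of mast cells and basophils at or below 13.4 CPM and of monocytes at or below 31.4 CPM on every plate. Summed dendritic cell markers ranged from 8.80 to 21.2 CPM in IL4+IL13 and from 9.29 to 288 CPM in IL4+IL13+TNF, where *Ccr7* alone reached 275 CPM. The part of these cells in the results below was not tested.

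*Clec4e* was far higher with TNF in both mice and on every plate. In IL4+IL13 the summed cells had 19.2 CPM in mouse 1 and 21.7 CPM in mouse 2. In IL4+IL13+TNF they had 665 CPM in mouse 1 and 723 CPM in mouse 2. The groups did not overlap, with 20.4 ± 1.8 CPM against 694 ± 41 CPM (mean ± SD, n = 2). This was a 34.0-fold difference, a log2 fold change of 5.09 ± 0.19 (SE), and the mice were nearly equal at 34.7-fold and 33.3-fold. Within plates the log2 change ranged from 4.70 to 5.29. The adjusted p was 0.0203 with edgeR's quasi-likelihood test and Benjamini-Hochberg adjustment over all genes. *Clec4e* had the smallest p of the 17034 genes and the 26th largest change. It was also called in each of the 12 alternatives, with adjusted p up to 0.0389.

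*Clec4e* was the 1 gene called higher in the edgeR fit with treatment as the only term, which called 0.00587% of genes higher and 0% lower. Of the 9 lectins, 1 was therefore called higher and 0 lower, and 4 were higher and 0 lower at an unadjusted p under 0.05, as were 626 and 754 of the 17034 genes. Read as mice, the numbers pair the samples, since each stands in the titles of both treatments. With the mouse as a block in edgeR, 4 of the 9 were called higher, *Clec4e*, *Clec5a*, *Clec4n* and *Clec4a2*, where 1.94% of all genes were called higher. None of the 9 was called lower, where 1.88% of all genes were. DESeq2 called 3 of the 9 higher, *Clec4e*, *Clec4n* and *Clec5a*, against 1.79% of all genes, and 0 lower, against 1.72%. Both IL4+IL13+TNF sums lay above both IL4+IL13 sums for 5 of the 9, against 18.6% of all genes, and below them for 1 of the 9, *Clec4a3*, against 17.9%. The median log2 fold change was 0.71 over the 9 lectins and 0.0038 over all genes tested. The 9 were chosen with earlier results of these data known, so these counts and medians beside all genes describe them and test nothing.

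**Figure D1:**
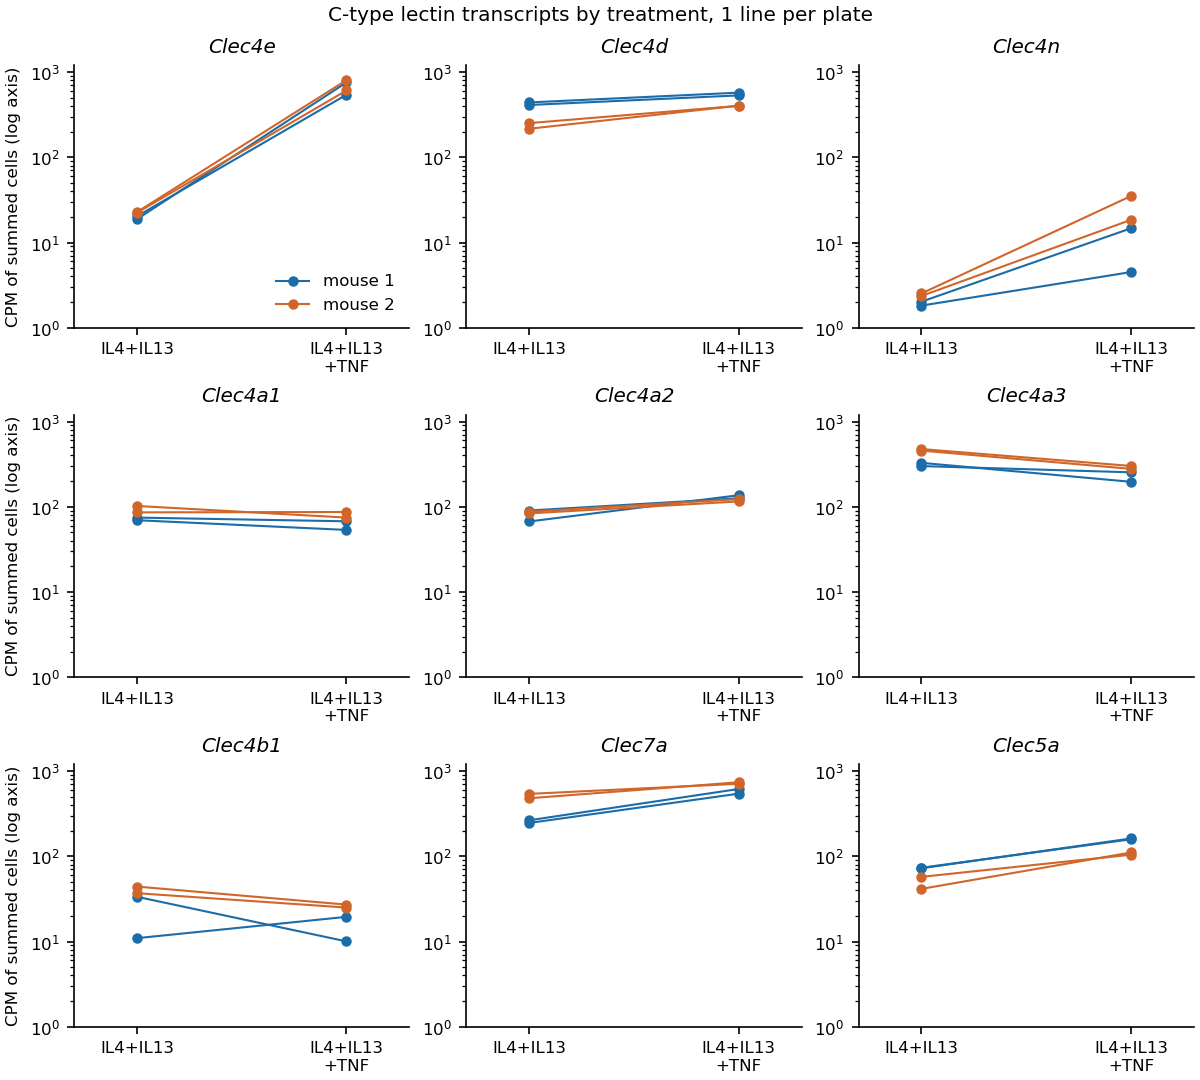
CPM (log axis) of each of the 9 genes in the summed cells of each plate, in IL4+IL13 and in IL4+IL13+TNF; each line is 1 plate, blue for the plates of mouse 1 and orange for those of mouse 2. *Clec4e* moved from 18.8 to 22.8 CPM up to 541 to 802 CPM on all 4 plates, whereas the lines of *Clec4b1* cross.

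The partner of Mincle, *Clec4d*, was abundant without TNF. It had 416 CPM in mouse 1 and 224 CPM in mouse 2 with IL4+IL13, while TNF-treated cells had 575 CPM and 412 CPM. The groups overlapped, since mouse 1 with IL4+IL13 was at the level of mouse 2 with IL4+IL13+TNF. The log2 fold change was 0.62 ± 0.35 (SE), with an adjusted p of 0.771 in edgeR and of 0.0594 with the mouse as a block. Every plate had more with TNF, by 0.37 to 0.90 on the log2 scale. So the neighbours *Clec4e* and *Clec4d* differed 33.3-fold to 34.7-fold and 1.38-fold to 1.84-fold between treatments within the mice.

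*Clec4n*, which encodes Dectin-2, was rare. It had 1.88 CPM in mouse 1 and 2.36 CPM in mouse 2 with IL4+IL13, while TNF-treated cells had 9.46 CPM and 27.4 CPM. The groups did not overlap, but the IL4+IL13+TNF sums differed between mice by more than the IL4+IL13 sums did. The log2 fold change was 3.12 ± 0.58 (SE), with an adjusted p of 0.265 in edgeR, 0.0212 with the mouse as a block and 2.83e-07 in DESeq2. Few cells carried it: after thinning each cell to 339000 fragments, the share of cells with at least 5 fragments was 2.41% in mouse 1 and 1.29% in mouse 2 without TNF, and 8.25% and 12.1% when TNF was present. The 17 cells richest in *Clec4n* held 85.0% of its level in the IL4+IL13+TNF cells of mouse 1 and 78.1% in those of mouse 2. With at least 1 fragment the shares were 23.3% without and 28.4% with TNF in mouse 2, against 3.31% and 11.6% in mouse 1. Without the IL4+IL13+TNF sum of mouse 1 the log2 fold change was 3.69 and the adjusted p in edgeR 0.0458, and without that of mouse 2 they were 2.16 and 0.415. Without either IL4+IL13 sum the adjusted p in edgeR was 0.328 and 0.313.

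*Clec5a*, the DAP12-coupled receptor MDL-1, had 71.3 CPM in mouse 1 and 48.0 CPM in mouse 2 with IL4+IL13, while TNF-treated cells had 167 CPM and 110 CPM. The groups did not overlap and mouse 1 was higher than mouse 2 in both. The ratio was 2.34 in mouse 1 and 2.30 in mouse 2. The log2 fold change was 1.22 ± 0.31 (SE), with an adjusted p of 0.387 in edgeR, 0.0120 with the mouse as a block and 0.0153 in DESeq2. All 4 plates had more with TNF, by 0.86 to 1.41 on the log2 scale.

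*Clec7a*, the β-glucan receptor, had 250 CPM in mouse 1 and 488 CPM in mouse 2 with IL4+IL13, while TNF-treated cells had 601 CPM and 741 CPM. The groups did not overlap, and mouse 2 was higher in both. The ratio was 2.41 in mouse 1 and 1.52 in mouse 2. The log2 fold change of 0.86 ± 0.35 (SE) had an adjusted p of 0.635 in edgeR and of 0.0551 with the mouse as a block, so *Clec7a* was not called in either. The plates of mouse 1 differed by 1.22 and 1.14 and those of mouse 2 by 0.62 and 0.39 on the log2 scale.

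The DCIR gene *Clec4a2* had 77.2 CPM and 82.2 CPM with IL4+IL13, while TNF-treated cells had 138 CPM and 122 CPM (mouse 1, then mouse 2), without overlap. Its log2 fold change was 0.71 ± 0.17 (SE), with an adjusted p of 0.366 in edgeR and of 0.0480 with the mouse as a block. *Clec4a3* had 307 CPM and 449 CPM with IL4+IL13, while TNF-treated cells had 238 CPM and 297 CPM, and it was the 1 gene of the 9 that was lower on every plate. Its log2 fold change was -0.50 ± 0.25 (SE), with an adjusted p of 0.705 in edgeR and of 0.0774 with the mouse as a block. *Clec4a1* had 70.6 CPM and 91.0 CPM with IL4+IL13, while TNF-treated cells had 64.0 CPM and 82.8 CPM, and these groups overlapped. Its log2 fold change was -0.14 ± 0.23 (SE) and its adjusted p in edgeR 0.950.

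*Clec4b1*, the FcRγ-coupled DCAR gene, had 21.8 CPM and 39.2 CPM with IL4+IL13, while TNF-treated cells had 15.9 CPM and 26.7 CPM. The groups overlapped, and the plates of mouse 1 went opposite ways, with log2 changes of -1.69 on plate 2 and 0.80 on plate 3. The log2 fold change was -0.51 ± 0.40 (SE), with an adjusted p of 0.855 in edgeR and of 0.129 with the mouse as a block. In each treatment of each mouse, the 5% of cells richest in *Clec4b1* held 71.1% to 77.7% of its level.

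**Figure D2:**
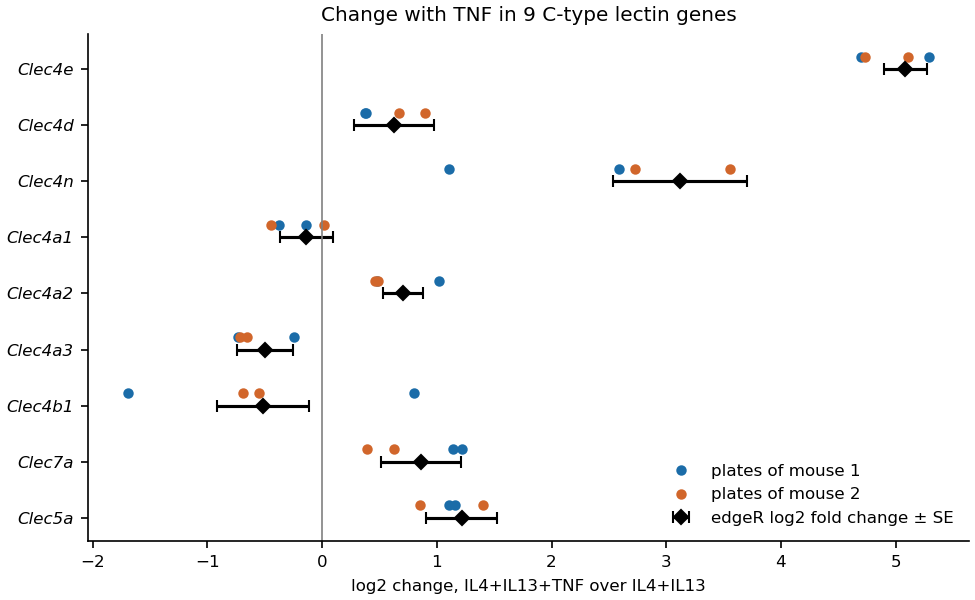
Log2 change of IL4+IL13+TNF over IL4+IL13 for the 9 genes: black diamonds are the edgeR log2 fold changes over the 4 sums with their standard errors, blue and orange points the changes within the plates of mouse 1 and mouse 2. All 4 plates lie above 0 for *Clec4e*, *Clec4d*, *Clec4n*, *Clec4a2*, *Clec7a* and *Clec5a* and below 0 for *Clec4a3*. How many of all genes did so was not counted. The points of *Clec4b1* run from -1.69 to 0.80.

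Levels of different genes were compared per length, as TPM (CPM rescaled for exon length) from the summed counts and the exon lengths in the table. With IL4+IL13 the order was *Clec4a3* at 590 ± 178 TPM, *Clec4d* at 409 ± 159 TPM and *Clec7a* at 291 ± 143 TPM (mean ± SD, n = 2). The values of the mice overlapped between each of these neighbours, which stood in opposite order in the mice. Then came *Clec4a1* at 107 ± 23 TPM, *Clec4b1* at 80.7 ± 35.5 TPM and *Clec4a2* at 56.2 ± 4.7 TPM, which overlapped from neighbour to neighbour although each was below the gene before it within each mouse. *Clec5a* at 31.8 ± 7.6 TPM, *Clec4e* at 8.5 ± 1.1 TPM and *Clec4n* at 3.08 ± 0.61 TPM closed the order, each below the gene before it in both mice. With IL4+IL13+TNF, *Clec4d* at 576 ± 126 TPM, *Clec7a* at 476 ± 77 TPM and *Clec4a3* at 377 ± 64 TPM led, with overlap between neighbours. *Clec4d* and *Clec7a* changed places between the mice, and *Clec7a* was above *Clec4a3* in both. *Clec4e* followed at 261 ± 19 TPM, apart from the genes on either side of it. *Clec4a1* at 88.2 ± 17.2 TPM, *Clec4a2* at 82.9 ± 5.8 TPM, *Clec5a* at 67.3 ± 18.5 TPM and *Clec4b1* at 50.9 ± 18.9 TPM overlapped from neighbour to neighbour, with *Clec4a2* above *Clec5a* in both mice and the other neighbours in opposite order, and *Clec4n* was last at 24.3 ± 17 TPM.

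Shares of cells were counted after thinning each cell to 339000 fragments, which kept 1250 cells. *Clec4e* was found with at least 1 fragment in 44.3% (95% exact Clopper-Pearson interval 38.9 to 49.8%) and 60.2% (54.5 to 65.7%) of the cells of mouse 1 and mouse 2 given IL4+IL13. With IL4+IL13+TNF these shares were 89.8% (85.8 to 92.9%) and 90.8% (87.0 to 93.8%). Most IL4+IL13 cells counted here had few fragments, since at least 5 were found in 16.9% and 9.39% of them, against 75.9% and 71.2% of IL4+IL13+TNF cells. The unthinned shares were 59.6 ± 12.6% and 94.5 ± 0.8% (mean ± SD, n = 2). For *Clec5a* the shares with at least 1 fragment were 61.4% and 51.5% without TNF and 89.1% and 76.5% in its presence. With at least 5 fragments they were 44.6% and 23.3% against 80.2% and 62.1%. The share with at least 1 fragment of *Clec4a2* was 64.5% and 70.2% against 80.2% and 74.8%, and with at least 5 it was 47.9% and 41.7% against 67.7% and 56.9%. With 2 mice in each treatment an exact two-sided permutation test cannot give a p below 0.33, the value it gave for *Clec4e*, *Clec5a*, *Clec4a2* and *Clec4a3*. *Clec4d* was found in 90.9% to 99.0% of cells and *Clec4a3* in 93.5% to 97.4% in each mouse and treatment. For *Clec7a* the shares were 84.3% and 98.4% without TNF and 97.7% and 98.7% in its presence. With at least 5 fragments they were 65.1% and 79.0% against 92.7% and 90.5%. These intervals cover counting error over the cells of 1 mouse only and not the spread between mice. Copies made by PCR are counted as fragments.

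The response of *Clec4e* was uneven from cell to cell. In the cells of mouse 1 given TNF the lower quartile, median and upper quartile were 12.3, 228 and 768 CPM, and in mouse 2 they were 8.24, 130 and 852 CPM. The cell with the highest level had 8973 CPM in mouse 1 and 9172 CPM in mouse 2. In IL4+IL13 the medians were 1.54 and 2.28 CPM, and 7.56% and 5.41% of cells were above 100 CPM, against 64.3% and 53.0% after TNF. After thinning, 9.71% to 22.8% of the TNF-treated cells of a plate had no more *Clec4e* than the median IL4+IL13 cell of that plate, and 5.59% to 13.1% had none. Conversely 1.20% to 4.94% of IL4+IL13 cells were above the median IL4+IL13+TNF cell of their plate.

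Thinned cells of a plate were set against each other, each TNF-treated cell with each cell given IL4+IL13 only, ties shared equally, and the former had more *Clec4e* in 81.5% to 88.0% of pairs. For *Clec5a* the range over plates was 64.7% to 74.1%, for *Clec7a* 58.9% to 73.4%, for *Clec4d* 58.0% to 68.4% and for *Clec4a2* 55.5% to 66.1%. *Clec4n* (52.5% to 55.4%), *Clec4a1* (45.3% to 54.2%) and *Clec4b1* (47.9% to 55.8%) lay near equal. *Clec4a3* was more often higher in the IL4+IL13 cell, with 37.5% to 41.7%. Per cell, 5.57 and 6.11 of the 9 genes were found on average with at least 1 fragment in IL4+IL13 and 6.74 and 6.81 in IL4+IL13+TNF in mouse 1 and mouse 2. This count depends on the low minimum. In the IL4+IL13 cells of mouse 2, for example, *Clec4b1* was found in 41.4% with at least 1 fragment and in 15.5% with at least 5.

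**Figure D3:**
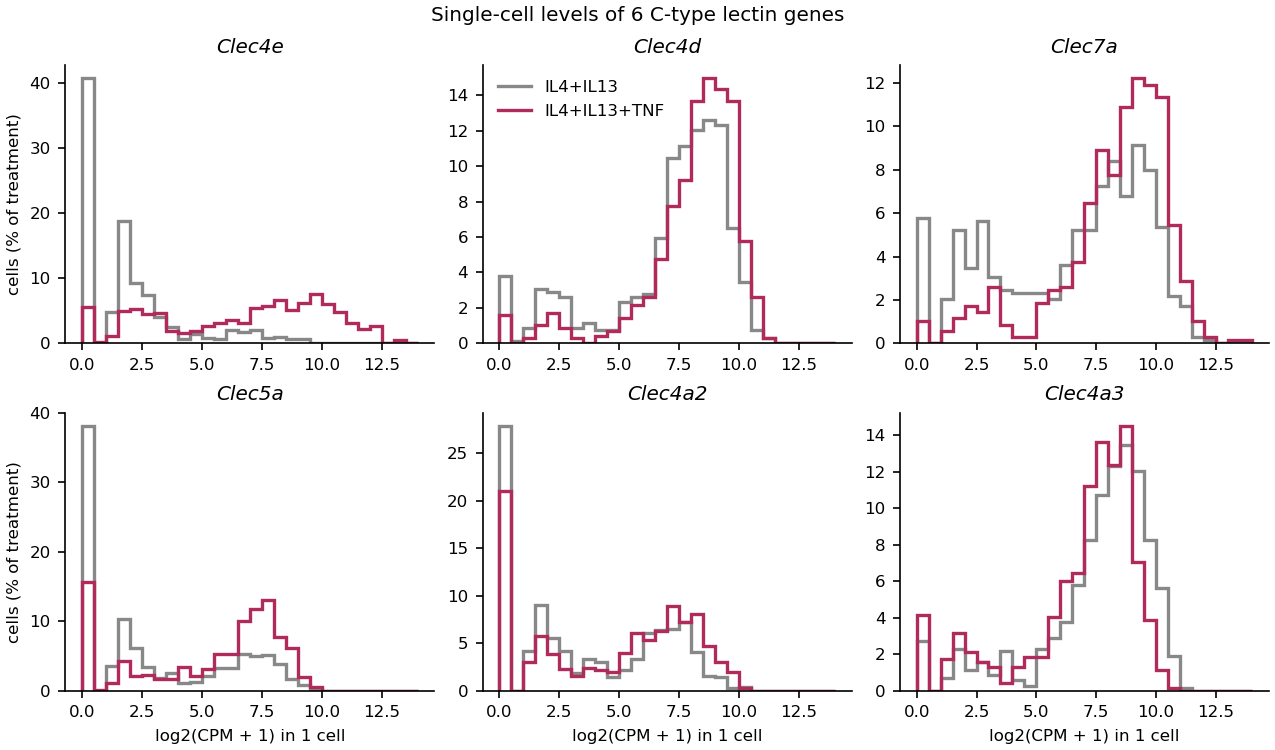
Share of the cells of each treatment by level, log2(CPM + 1) in 1 cell, for 6 of the genes, grey for IL4+IL13 and red for IL4+IL13+TNF, in steps of 0.5. *Clec4e* in IL4+IL13+TNF spread over the whole range while IL4+IL13 cells stayed low, *Clec5a* and *Clec4a2* lost cells at 0, and *Clec4d* and *Clec4a3* kept most cells at high levels in both.

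Correlations between genes were taken across thinned cells within each of the 8 sets of 1 plate and 1 treatment, with 128 to 175 cells in a set, and describe these cells only, since cells of a set share their plate and mouse. Over the 36 pairs of the 9 genes the mean Spearman rho ran from -0.17 to 0.48 with a median of 0.024, and 5 pairs were above 0.2. *Clec4e* and *Clec4d* had a rho of 0.51, 0.42, 0.45 and 0.49 in the IL4+IL13+TNF cells of plates 2 to 5. In the IL4+IL13 cells it was 0.25, 0.07, 0.19 and 0.0016, lower on every plate. At least 5 fragments of *Clec4e* were found in 8.02% to 17.5% of the latter cells, over the plates. *Clec4e* and *Clec5a* had a mean rho of 0.22 in IL4+IL13+TNF and of 0.085 in IL4+IL13.

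With *Clec4a2*, *Clec4a3*, *Clec4b1* and *Clec7a*, *Clec4e* had negative values in IL4+IL13+TNF. The mean rho was -0.20 with *Clec4a2*, between -0.35 and -0.11 on the plates, -0.15 with *Clec4a3*, -0.15 with *Clec4b1* and -0.14 with *Clec7a*. In IL4+IL13 the same 4 values lay between -0.035 and 0.046. *Clec4d* was negative with *Clec4a3* and with *Clec4b1* in all 8 sets, with mean rho of -0.17 and -0.15. The highest pair was *Clec4a2* and *Clec4b1*, the genes that share 8.68% of the stretches of *Clec4b1*, with a mean rho of 0.48 and a range of 0.36 to 0.54. *Clec4b1* was found in 39.3% to 49.8% of the cells with *Clec4a2* and in 9.32% to 21.7% of those without, over mice and treatments. *Clec4a2* and *Clec7a* had a mean rho of 0.25, *Clec4a1* and *Clec4a3* of 0.23 and *Clec4a2* and *Clec4a3* of 0.21, positive in all 8 sets. *Clec4n* had mean values between 0.010 and 0.059 with each of the other 8.

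**Figure D4:**
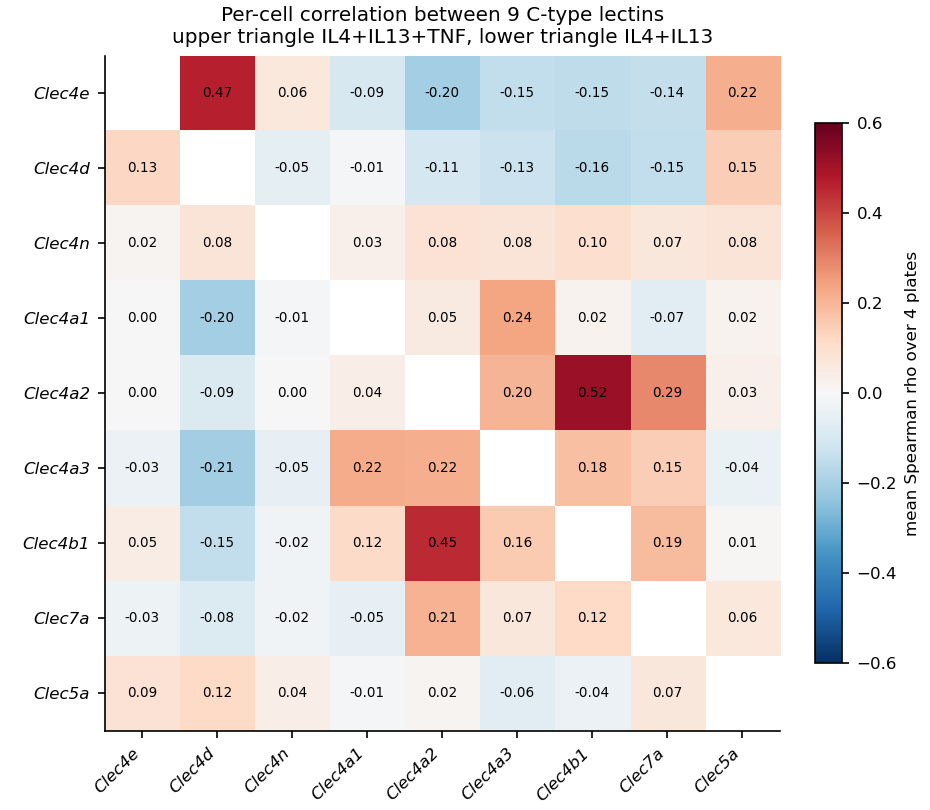
Mean Spearman rho over 4 plates between each pair of the 9 genes across thinned cells, IL4+IL13+TNF in the upper triangle and IL4+IL13 in the lower one, red for positive and blue for negative values. *Clec4e* and *Clec4d* stand at 0.47 with TNF and 0.13 without, and *Clec4a2* and *Clec4b1* at 0.52 and 0.45.

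**Figure D5:**
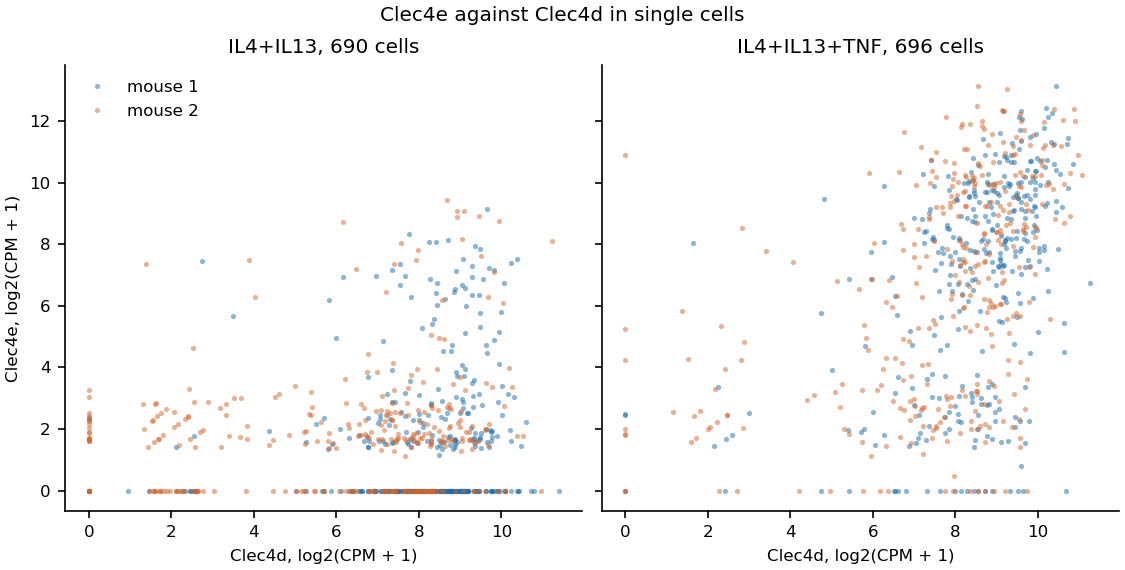
*Clec4e* against *Clec4d* in each kept cell, both as log2(CPM + 1), in the 357 and 333 cells given IL4+IL13 and the 347 and 349 given IL4+IL13+TNF, blue for mouse 1 and orange for mouse 2. With IL4+IL13 most cells lie low in *Clec4e* at any level of *Clec4d*, and with TNF *Clec4e* tends to be higher where *Clec4d* is higher. The rho of 0.42 to 0.51 on the plates with TNF was taken across the thinned cells, not the unthinned values shown here.

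The genes with cell-to-cell patterns most like each lectin were taken from the 10472 genes found in at least 25% of thinned cells of either treatment, by the mean rho over the 8 sets. For *Clec4e* they were *Clec4d* (0.30), *Sod2*, the mitochondrial superoxide dismutase (0.25), *Gm7901* (0.22), *Phgdh*, an enzyme of serine synthesis (0.22), and *Acod1*, which makes itaconate (0.22). For *Sod2* the mean was 0.50 in IL4+IL13+TNF and 0.0086 in IL4+IL13, for *Acod1* it was 0.42 and 0.016, and for *Clec4d* 0.47 and 0.13. As given above, few IL4+IL13 cells had at least 5 fragments of *Clec4e*. How far this lowered the values of *Clec4e* with any gene in IL4+IL13 was not tested. *Clec4d* was likest to the ferritin heavy chain gene *Fth1* (0.37) and its related sequences *Gm6977* (0.37) and *Fth-ps3* (0.35), then to the peroxiredoxin gene *Prdx1* (0.32) and to *Clec4e*. *Clec7a* was likest to *Anxa1*, *Ctss*, *Atp6v0d2*, *Itgb2* and *Cd9*, with values of 0.39 to 0.45.

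*Clec4b1* was likest to *Clec4a2* (0.48), followed by 3 genes of antigen presentation on MHC class II, *Cd74* (0.34), *H2-DMa* (0.32) and *H2-Ab1* (0.29), and by the integrin gene *Itgax* (0.31). *Clec4a2* was likest to *Clec4b1*, *Itgax* (0.30), *Cd52* (0.30), *Ctss* (0.28) and *Daglb* (0.28). *Clec4a3* had *Clec4a1* (0.23) and *Clec4a2* (0.21) as its nearest genes, before *Cd52*, *Cd74* and *Gm2a*. *Clec4a1* had *Clec4a3* (0.23), the CSF1 receptor gene *Csf1r* (0.22), *Nrros*, *Ly6e* and *Ms4a6b*. *Clec5a* had low values throughout, with *Clec4e* first (0.15), then *Lyz1*, *Lilr4b*, *Sar1b* and *Cst7* at 0.13 to 0.14. *Clec4n* was found in too few cells to be ranked.

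Each lectin was also set against *Mrc1*, *Clec10a*, *Mgl2*, *Retnla* and *Tnf*. *Clec7a* was negative in all 8 sets with the mannose receptor gene *Mrc1* (mean rho -0.26), with the galactose-type lectin *Clec10a* (-0.20) and with *Mgl2* (-0.11). *Clec4b1* (-0.22) and *Clec4a2* (-0.20) were also negative with *Mrc1* in all 8 sets, while with *Mgl2* *Clec4b1* was positive in all 8 (0.14) and *Clec4a2* had a mean of 0.065. *Clec4d* was negative with *Clec10a* in all 8 sets as well (-0.15). *Clec4a1* was positive in all 8 sets with *Mrc1* (0.15) and *Clec10a* (0.16), and *Clec4a3* with *Clec10a* (0.15) and *Mgl2* (0.12). *Clec4e* and *Tnf* had a rho of 0.21, 0.17, 0.15 and 0.12 in the IL4+IL13+TNF cells of plates 2 to 5, and a mean of -0.017 in IL4+IL13. *Clec4e* and *Mgl2* had a mean rho of 0.089 in IL4+IL13 and -0.095 in IL4+IL13+TNF. With *Clec10a*, *Mrc1* and *Retnla*, *Clec4e* had means between -0.080 and 0.038 in either treatment.

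The other genes of the pathway were taken from lists of fixed membership, also chosen with earlier results of these data known. Their counts at an unadjusted p under 0.05 stand beside 626 higher and 754 lower of all 17034 genes. Their counts with the mouse as a block stand beside 1.94% of all genes called higher and 1.88% called lower. For DESeq2 these shares of all genes were 1.79% and 1.72%. Of the 21 adaptors and kinases of the Syk-Card9 relay, 20 were tested, and the edgeR fit with treatment only called 0, with 7 higher and 0 lower at an unadjusted p under 0.05. With the mouse as a block 5 were called higher and 0 lower, and DESeq2 called 4 higher. The median log2 fold change was 0.25. *Fgr*, a Src-family kinase gene, had 1.06 and 1.90 CPM with IL4+IL13, against 22.6 and 21 CPM with TNF added (block adjusted p of 0.00894 in edgeR). *Src* itself had 0.561 and 0.854 CPM against 7.27 and 8.5 CPM (block adjusted p of 0.00999 in edgeR). Of the kept cells, 10.4% carried *Fgr* and 5.36% *Src* in IL4+IL13, against 34.8% and 23.7% in IL4+IL13+TNF. *Prkcd*, a kinase between Syk and Card9, had 397 and 690 CPM with IL4+IL13, against 918 and 1281 CPM with TNF added (block adjusted p of 0.0145 in edgeR). The adaptor genes themselves, *Fcer1g* for FcRγ and *Tyrobp* for DAP12, are given here for their role, after their values were seen. *Fcer1g* had 3029 and 2850 CPM with IL4+IL13, against 2575 and 2553 CPM with TNF added, with a block adjusted p of 0.180 in edgeR. *Tyrobp* had a log2 fold change of -0.04 ± 0.14 (SE), with a block adjusted p of 0.821 in edgeR.

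Of 12 inhibitory phosphatases and brakes, all were tested, and edgeR with treatment only and DESeq2 each called 0, with 1 higher and 2 lower at an unadjusted p under 0.05. The block called 1 higher, *Lilrb4a*, an ITIM receptor gene with a log2 fold change of 0.57 in that fit, and 1 lower, *Cd300lf*, an inhibitory receptor gene with -1.17. Of 14 other C-type lectins in the chromosome 6 clusters 4 were tested and 0 were called by edgeR with or without the block or by DESeq2, and 0 had an unadjusted p under 0.05. *Clec12a*, an inhibitory lectin, had 430 and 368 CPM with IL4+IL13, against 575 and 411 CPM with TNF added. Of 22 C-type lectins elsewhere in the genome 11 were tested. EdgeR called 0 of them with treatment only, with 2 higher and 6 lower at an unadjusted p under 0.05, and called 2 higher and 4 lower with the block, while DESeq2 called 2 higher and 5 lower.

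Among these, *Ly75*, the endocytic receptor DEC-205 of dendritic cells, had 0.726 and 0.700 CPM with IL4+IL13, against 5.83 and 8.99 CPM with TNF added, and *Cd302* had 90.3 and 78.2 against 186 and 198 CPM. *Clec10a* had 261 and 336 CPM with IL4+IL13, against 84.6 and 123 CPM with TNF added, the opposite direction to *Clec4e*, and *Thbd*, thrombomodulin, had 9.41 and 8.38 against 0.869 and 1.65 CPM. The block adjusted p in edgeR was 0.0137 for *Ly75*, 0.0146 for *Cd302*, 0.00771 for *Clec10a* and 0.0233 for *Thbd*. The median log2 fold change was -0.88 over the 11 lectins elsewhere and 0.50 over the 4 of the chromosome 6 clusters.

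Of 21 genes that Dectin and Mincle signalling is known to induce or act through, 15 were tested. EdgeR called 0 with treatment only, with 6 higher and 3 lower at an unadjusted p under 0.05. The block called 3 higher and 3 lower and DESeq2 called 4 higher and 1 lower. *Cxcl2*, a neutrophil chemokine, had 13.6 and 9.27 CPM with IL4+IL13, against 315 and 74.8 CPM with TNF added, *Il6* had 0.440 and 0.208 against 8.0 and 15 CPM, and *Ptgs2*, cyclooxygenase-2, had 0.259 and 0.297 against 5.90 and 4.96 CPM. *Il10*, the anti-inflammatory cytokine, had 8.65 and 3.96 CPM with IL4+IL13, against 2.04 and 0.827 CPM with TNF added. The block adjusted p in edgeR was 0.0148 for *Cxcl2*, 0.0182 for *Il6*, 0.00870 for *Ptgs2* and 0.0228 for *Il10*. Except for *Cxcl2*, few kept cells carried them. *Il6* was found in 3.33% of IL4+IL13 cells and 6.47% of IL4+IL13+TNF cells. These shares were 6.52% and 13.4% for *Ptgs2*, 11.9% and 4.31% for *Il10* and 39.0% and 70.7% for *Cxcl2*.

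All 19 transcription factors listed for *Clec4e* and *Clec7a* were tested, and edgeR called 0 with treatment only, with 4 higher and 1 lower at an unadjusted p under 0.05. The block called 2 higher and 1 lower and DESeq2 2 higher and 0 lower. *Relb* and *Nfkb2*, subunits of the non-canonical NF-κB pathway, had 7.65 and 11.7 against 37.4 and 52.7 CPM and 16.2 and 25.4 against 54.7 and 68.3 CPM. *Cebpa*, a C/EBP factor, had 44.0 and 74.5 CPM with IL4+IL13, against 24 and 41.5 CPM with TNF added. The block adjusted p in edgeR was 0.00743 for *Relb*, 0.0124 for *Nfkb2* and 0.0292 for *Cebpa*. Over the 6 lists together 81 of 109 genes were tested, of which 41 were higher and 25 lower in both mice, against 5849 and 5519 of the 17034 genes.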

How the data were processed

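Single BMDMs of 2 wild-type mice were profiled with Smart-seq2, and mouse, treatment, plate and well of 1524 wells came from the sample labels; 4 samples without a mouse in their labels were left ungrouped. The authors aligned fragments to mm10 with gsnap and deposited 1 table of raw counts of uniquely mapped fragments per Ensembl gene and well, made with featureCounts 1.6.3 without normalization, from libraries that do not mark strand. The 92 spike-in rows stayed out of totals, and 8 columns that match no label were not used. No molecular identifiers were used, so copies made by PCR are counted.

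The 9 genes and all lists were chosen with earlier results of these data known. Wells were removed per plate at more than 3 median absolute deviations (low total or genes, high mitochondrial or spike-in share), which kept 1386. No doublet caller was run, since cells were sorted singly. Kept wells had 200235 to 6122892 fragments. The 4 sums, of each mouse under each treatment, entered edgeR 4.0.16 (glmQLFit, glmQLFTest, TMM, R 4.3.3; Benjamini-Hochberg over 17034 genes found in at least 5% of cells of either treatment and passing filterByExpr; threshold 0.05). Each standard error (SE) is the absolute log2 fold change divided by the square root of the quasi-likelihood F statistic. CPM per mouse use TMM and CPM per plate plain totals, and plate changes add 0.5 CPM. The test and the ranking by likeness were first run on simulated data. The counts simulated for the test held no difference between mice, unlike the data, so they do not show how it performs with paired mice.

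The fit was repeated with a replicate block for the mouse, with DESeq2 1.42.0, with its size factors, library size alone, no gene filter, limma 3.58.1 on log2(CPM + 1) of mean cell values, other cell filters, other thinning and leaving out each sum. The series' design names 2 separate mice, and the 1 or 2 in the titles was read as the mouse. On that reading the same animals gave both treatments and the numbers pair the samples. Deviations from the treatment means correlated between the treatments of a mouse with r = 0.562 over 17034 genes. Both treatments of a mouse also shared its plates, and the part of the plates in this correlation was not tested. Python 3.11.15 with numpy 2.4.6 and scipy 1.17.1 made shares, overlaps and correlations. Genes named from a list were those called with or without the block that moved alike in both mice, up to 4 by size of change; where none was called, up to 2 found in at least 25% of cells of the higher treatment. A gene that this rule names is not reported here. The 5 likest genes are given for each lectin found in at least 25% of cells. Promoter windows and motif shares came from RefSeq on GRCm38.p6, and only the 250 bases before the start were searched, not the 50 after it as first planned. Protein sequences were not used here.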

Additional observations from a re-analysis of the deposited data

Results flagged for a closer look

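On 4 plates, 27 sets of values were searched for a plate that stands apart, and chance alone gives about 1 in 20. The log2 change of *Clec4a2* on plate 3 was 1.02, against 0.46 to 0.49 on the other plates. The log2 change of *Clec4a3* on plate 3 was -0.24, against -0.74 to -0.66 on the others. Both plates 2 and 3 hold cells of mouse 1.

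For 3 of the 4 samples that the labels assign to no mouse, a column of counts was at hand. These wells lie in row P of plates 3, 4 and 5, and their labels name IL4+IL13. They were used in no comparison. The wells of plates 3, 4 and 5 held 10802, 11121 and 8314 genes from 279461, 354874 and 87198 fragments. The kept cells of these plates had medians of 7308 to 8173 genes and of 472068 to 492791 fragments, over plates and treatments. Whether each of these wells held a single cell was not tested. *Clec4e* was 279 CPM in the well of plate 3 and 603 CPM in that of plate 4, above 98.9% and 99.4% of the IL4+IL13 cells of these plates and above 54.1% and 71.7% of the IL4+IL13+TNF cells. In the well of plate 5, with 87198 fragments, *Clec4e* was 103 CPM, above 93.8% of IL4+IL13 cells. *Clec4n* was 11.5 CPM there, from 1 fragment.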

How the results depend on the processing

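With the mouse as a replicate block 4 of the 9 lectins were called higher and with DESeq2 3, against 1, and leaving out 1 sum gave 1 to 2, the second being *Clec4n* without the IL4+IL13+TNF sum of mouse 1. A sum left alone in its treatment was taken to have the spread of the opposite treatment. None was called lower under any of the 12 alternatives, and the cause of these differences was not tested. Over the 6 lists the block called 13 genes higher and 9 lower, DESeq2 12 higher and 6 lower, and leaving out 1 sum 0 to 2 higher. Over all genes edgeR called 1 with treatment only and 651 with the block, and DESeq2 598. The direction of *Clec4a1* changed among the fits without 1 sum, from -0.34 to 0.058, with 0.058 without the IL4+IL13 sum of mouse 2 and 0.03 without the IL4+IL13+TNF sum of mouse 1. Its difference in share of cells was 1.26 percentage points and became -0.25 without a cell filter and -1.90 without plate 5. That of *Clec4b1* was 3.24 and became -0.57 at a minimum of 5 fragments. The other 5 lectins higher in both mice besides *Clec4e* and the lower *Clec4a3* and *Clec4b1* kept their direction under all 12 alternatives of the fit. With library size alone the median over all genes was -0.089. The 180 correlations, 18 TPM levels, 9 overlaps and 9 plate changes computed otherwise moved by less than the spread between sets, mice or plates. Among these correlations, those of each mouse alone are means over part of the same sets, so their result was fixed in advance. The spread between sets also holds the difference between treatments, so it is a wide limit for the other correlations.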
